A study of Drosophila melanogaster with 3 samples.

Results

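Core peaks at non-divergent promoters are the sites where the tagged fly transcription factor Broad was recovered within 200 bp of an annotated transcription start site (TSS) that does not belong to a pair of protein-coding genes transcribed away from each other. They were taken from the authors' list of optimal dm6 peaks on the nuclear chromosomes. A peak was a member if its summit lay at most 200 bp from the nearest annotated TSS and if no divergent protein-coding pair, with the minus-strand start to the left of the plus-strand start, had both starts within 1000 bp of the summit. The rule found 413 members among 2510 nuclear optimal peaks, which is 16.5% (exact binomial 95% interval 15.0 to 18.0%). The whole optimal list holds 2533 peaks, 23 of them mitochondrial. The other nuclear peaks were 575 at head-to-head pairs, 585 at flanks (more than 200 and up to 1000 bp from the nearest TSS) and 937 farther away.

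All samples came from 1 Drosophila melanogaster line, strain br-re-GFP, which stably expresses Broad form br-RE with GFP at its C terminus. Whole wandering larvae of the third instar were used, with males and females pooled, in 3 biological replicates numbered 2, 3 and 4. Chromatin sonicated to between 200 and 800 bp was precipitated with an antibody against GFP. There was no second genotype, stage or treatment, so conditions were not compared, and each value sums over all larval tissues. The zinc fingers carried by br-RE and the driver of the transgene were not given in the sources used here.

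Broad is an early gene of the response to the moulting hormone ecdysone, and its isoforms share a BTB domain while differing in their zinc fingers. It is known for its part in the change from larva to pupa. A core promoter is the short stretch around a start site where RNA polymerase II is assembled. In flies it is commonly marked either by the initiator, TATA box and GAGA word or by the DNA replication-related element (DRE) and the motif of M1BP. DRE is bound by DREF, and its letters contain the word of the insulator protein BEAF-32.

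Sequences under 4 of the 5 strongest core peaks are shown first, because they carried the highest signals of the class at protein-coding genes. The 121 bases centred on the summit are printed on the strand of the gene, from the RefSeq copy of Release 6 (dm6), and capitals are not used because no word is marked. The summits lay 96, 168, 84 and 146 bp upstream of the starts of CG14100, gish, CG18549 and Gapdh2.
CG14100 (chr3L:19590560-19590680, minus strand): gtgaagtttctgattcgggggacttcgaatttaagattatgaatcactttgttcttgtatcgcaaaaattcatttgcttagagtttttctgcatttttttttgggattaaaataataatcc
gish (chr3R:16280661-16280781, plus strand): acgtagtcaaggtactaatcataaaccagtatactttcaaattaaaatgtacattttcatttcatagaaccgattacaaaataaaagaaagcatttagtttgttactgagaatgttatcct
CG18549 (chr3R:12449152-12449272, plus strand): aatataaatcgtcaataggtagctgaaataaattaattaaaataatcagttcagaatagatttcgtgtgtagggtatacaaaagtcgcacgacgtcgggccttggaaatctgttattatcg
Gapdh2 (chrX:15867939-15868059, plus strand): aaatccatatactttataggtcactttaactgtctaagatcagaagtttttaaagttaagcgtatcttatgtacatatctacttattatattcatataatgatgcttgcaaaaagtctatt

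Short words were then marked near the core summits. DRE is shown because its share at core and flank summits is compared further on. Stronger members that hold DRE, such as asRNA:CR45928, CG1827 and Alg3, are not shown. Of the 25 DRE-holding members 6 are shown in order of signal, with the word TATCGATA in capitals. They sat at genes for Epg5, an autophagy tether, the microtubule-associated protein Map205, CG7006, the ER membrane complex subunit EMC4, CG42359 and the chaperone Hsp110.
Epg5 (chr3R:18759095-18759154, minus strand): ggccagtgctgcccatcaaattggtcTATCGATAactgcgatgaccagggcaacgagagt
Map205 (chr3R:32068490-32068549, minus strand): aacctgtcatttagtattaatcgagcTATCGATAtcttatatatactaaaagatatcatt
CG7006 (chr3R:24850559-24850618, plus strand): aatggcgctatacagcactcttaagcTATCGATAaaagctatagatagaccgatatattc
EMC4 (chr3L:22868280-22868339, minus strand): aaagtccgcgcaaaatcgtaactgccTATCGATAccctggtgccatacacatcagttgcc
CG42359 (chr3R:19162301-19162335, minus strand): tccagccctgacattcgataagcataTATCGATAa
Hsp110 (chr3L:14036915-14036974, plus strand): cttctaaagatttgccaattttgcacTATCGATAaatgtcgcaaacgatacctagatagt

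The M1BP word, GGTCACAC on either strand, is shown at 3 of the 12 members that hold it. The Xbp1 peak, stronger than all 3, is not shown. Nhe3 and Cnx99A, stronger than Tango9 and RpL27, and Acsl, stronger than RpL27, are not shown either. RpL30 and RpL27 encode proteins of the large ribosomal subunit. Stretches inside an annotated UTR were limited to 30 bases.
RpL30 (chr2L:19009261-19009290, minus strand): atccccccgtcGGTCACACcaacacaaacg
Tango9 (chr3R:11974948-11975007, minus strand): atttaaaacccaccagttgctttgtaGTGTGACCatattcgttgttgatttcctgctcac
RpL27 (chr3R:25685134-25685193, minus strand): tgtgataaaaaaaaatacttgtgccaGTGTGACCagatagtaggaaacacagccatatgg

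The GAGA word, GAGAGA on either strand, was the word whose share differed most between replicates. It is shown at 4 members that were chosen after their values were seen. REPTOR encodes a transcription factor held in check by the TOR kinase complex, Eip75B an ecdysone-induced nuclear receptor and Hsp26 a small heat shock protein.
gish (chr3R:16280596-16280653, plus strand): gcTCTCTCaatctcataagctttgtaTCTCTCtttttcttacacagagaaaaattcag
REPTOR (chr3R:24572556-24572613, minus strand): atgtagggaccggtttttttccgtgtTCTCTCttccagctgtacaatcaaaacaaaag
Eip75B (chr3L:17999822-17999853, minus strand): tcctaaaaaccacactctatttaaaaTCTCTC
Hsp26 (chr3L:9377465-9377522, minus strand): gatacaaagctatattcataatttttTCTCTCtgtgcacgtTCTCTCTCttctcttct

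Words recorded for the Broad zinc finger forms Z2 (CTATTT), Z3 (AAACTA) and Z4 (GTAAACA) are each shown at a pair of members, and stronger members that hold them, such as GstE13 (Z2) and Adk3 (Z2 and Z4), are not shown.
PAN3 (Broad Z2, chr3L:3081398-3081455, plus strand): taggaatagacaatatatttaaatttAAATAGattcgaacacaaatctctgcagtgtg
CG11857 (Broad Z2, chr3R:25258778-25258835, plus strand): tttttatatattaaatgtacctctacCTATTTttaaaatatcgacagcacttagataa
gish (Broad Z3, chr3R:16280730-16280787, plus strand): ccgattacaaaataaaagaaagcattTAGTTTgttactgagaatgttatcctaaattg
CG18549 (Broad Z3, chr3R:12449103-12449160, plus strand): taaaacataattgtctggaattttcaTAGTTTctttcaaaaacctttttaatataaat
CG1635 (Broad Z4, chr3R:31588417-31588475, plus strand): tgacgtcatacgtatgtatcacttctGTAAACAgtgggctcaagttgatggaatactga
fok (Broad Z4, chr2L:20085317-20085375, minus strand): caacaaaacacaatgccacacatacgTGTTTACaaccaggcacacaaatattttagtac

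The members spread over 395 genes. A protein-coding gene had the nearest start at 361 members (87.4%), a noncoding RNA gene at 47, a tRNA gene at 2, an snRNA gene at 2 and a snoRNA gene at 1. At 343 members (83.1%) no other gene started within 1000 bp. Another protein-coding start lay within that distance at 39 members, on the same strand at 19 and on the opposite strand at 20. By the rule none of these formed a divergent pair with a protein-coding start, while pairs with the start of a noncoding gene were not checked. Genes with a core peak had a median of 3 annotated transcripts and 2 start sites, while all protein-coding genes had medians of 2 and 1. More start sites give a gene more chances to own a core peak.

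The summit lay outside every annotated transcript at 202 members (48.9%), in an intron at 116 (28.1%), in a 5′ UTR at 62 (15.0%), in a noncoding exon at 25 (6.05%), in a 3′ UTR at 7 and in a coding exon at 1. Across the chromosome arms there were 104 members on 3R, 85 on 2L, 82 on 3L, 78 on 2R, 62 on X and 2 on chromosome 4. The arm 3R held 25.2% of members and 24.7% of nuclear optimal peaks, and X 15.0 and 16.9%. Most regions had 1 fixed width, with 350 of 413 at 404 bp.

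The authors' signal value of the members ran from 88.3 to 1232 with a median of 119. This value is the strength given by their peak caller, in a unit that was not given in the sources used here, and it serves only to rank regions within 1 list. For each replicate the authors deposited 30000 regions ranked the same way. The 2533 strongest of these, as many as the optimal list holds, are called its top regions, and a member was counted as found there when a top summit lay within 200 bp of its own.

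CG14100, a gene known only by its number, had the strongest core peak (signal 1232, 3L:19590449-19590787). Its region ranked 25, 13 and 1 in replicates 2, 3 and 4. The peak at gish, which encodes a casein kinase 1 of the gamma type, ranked 19, 30 and 56. The noncoding gene lncRNA:CR31044 followed at ranks 35, 27 and 23, and CG18549 at ranks 23, 37 and 68. These 4 peaks were near the head of all 3 lists.

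The peak at Gapdh2, a glycolytic enzyme gene, ranked 29, 40 and 149. That of Ptpmeg2, a protein tyrosine phosphatase gene, ranked 54, 56 and 48. GstE13, a glutathione S-transferase gene, had a peak 84 bp downstream of its start with ranks of 231, 53 and 30. Replicate 2 placed GstE13 lowest and replicate 4 placed Gapdh2 lowest, so the order of the strongest members differed between replicates.

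The 25 strongest members had signals of 394 to 1232, and each was among the top regions of all 3 replicates, which is a description because their signal came from the same libraries. Their ranks reached from 19 to 282 in replicate 2, from 13 to 371 in replicate 3 and from 1 to 339 in replicate 4. The rest of the 25, in order, were at asRNA:CR45928, CG13921, MFS10, PAN3, Hpf1, Hsp27, lncRNA:CR46102, Fkbp14, MFS18, asRNA:CR43257, CG1635, Trp1, aru, CG1607, REPTOR, Tina-1, Adk3 and CG1827. They include transporters of the major facilitator family (MFS10 and MFS18), a subunit of a deadenylase complex (PAN3) and a small heat shock protein (Hsp27). The summit was upstream of the start at 21 of the 25 and the gene was protein-coding at 21. DRE was within 100 bp of the summit at 2 of them, GAGA at 2 and the M1BP word at 0.

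**Figure D1:**
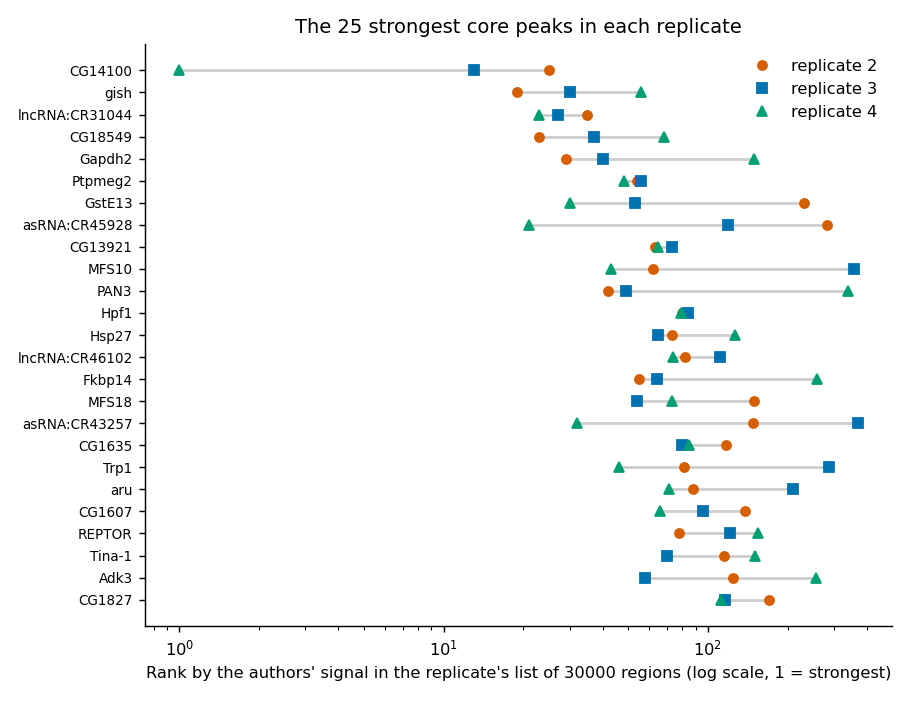
Rank of the 25 strongest core peaks by the authors' signal in the list of 30000 regions of each replicate (log axis, 1 is strongest), 1 row per peak, with a line from the lowest to the highest rank. CG14100 runs from rank 1 in replicate 4 to rank 25 in replicate 2, and the lowest of all ranks shown is 371 for asRNA:CR43257 in replicate 3.

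Of the 395 genes, 17 owned more than 1 core peak, and Ptpmeg2 owned 3. The Ptpmeg2 peaks had signals of 209, 549 and 282 and lay 162, 194 and 169 bp upstream of 3 different start sites of the gene, and each was among the top regions of all 3 replicates. The corepressor gene gro had peaks with signals of 135 and 312 at 2 starts, the ecdysone-responsive bZIP gene vri 134 and 113, and the chromatin remodeller gene kis 147 and 98.1. At Adk3, CG9399, MFS14, Pi3K21B, Sobp and asRNA:CR43257 the pair of members shared 1 start site and the regions overlapped. Of all members, 37 (8.96%) overlapped another optimal peak. Overlapping members can be matched to the same replicate region, as the Adk3 pair was in replicate 3 (rank 58) and replicate 4 (rank 257), and their support is then not separate evidence.

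Summits lay mostly upstream of the start. The median position was 96 bp upstream (quartiles −150 and −28 bp), and 340 of 413 summits (82.3%) were upstream. By the same rule, the top regions gave 527, 493 and 367 core regions in replicates 2, 3 and 4, or 18.4 ± 3.44% of nuclear top regions (SD, n = 3). Their median positions were −69, −87 and −88 bp (−81.3 ± 10.7), and 71.0, 82.4 and 80.9% of them were upstream (78.1 ± 6.20%). Replicate 2 stood closest to the start and had the most summits downstream of it.

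In the optimal list the counts fell with each step toward and past the start. There were 101 members between −200 and −151 bp, 98 between −150 and −101, 90 between −100 and −51 and 51 between −50 and −1. Downstream there were 28 between 0 and 49 bp, 20 between 50 and 99, 14 between 100 and 149 and 11 between 150 and 200. In each replicate the fullest bin was instead the one from −150 to −101 bp. The rule ends at 200 bp, so it also bounds these positions. Member and replicate summits differed by a median of 20, 25 and 27.5 bp in replicates 2, 3 and 4 (407, 400 and 340 matched members), and 77.6, 70.2 and 72.6% of them were within 50 bp, so differences in position of this size were not resolved for a single peak.

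**Figure D2:**
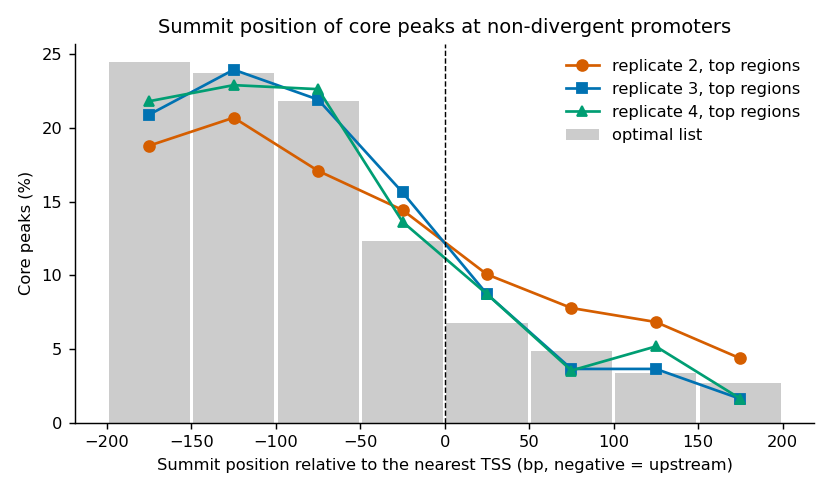
Share of core peaks (%) in bins of 50 bp of the summit's distance from the nearest TSS, negative upstream. Grey bars are the 413 members of the optimal list and lines are the core regions among the top regions of replicates 2, 3 and 4. Every list holds more core peaks upstream than downstream of the TSS, and replicate 2 is the highest in each downstream bin.

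The limit at 200 bp passed through a continuous range of positions. The members nearest inside it were at bib, a channel-family gene of the Notch pathway (200 bp, signal 108), lncRNA:CR43337 (200 bp, signal 101) and CG12118 (199 bp, signal 103). The peaks nearest outside were at CG2816 (signal 269), the cation-chloride cotransporter gene Ncc69 (signal 93.1) and the ceramide kinase gene Cerk (signal 312), each at most 2 bp past the limit.

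By median signal rank, core peaks were placed lower in the optimal list than the other classes. The median member was 56.2% of the way down the nuclear list, against 46.1% for flank peaks, 49.3% for head-to-head peaks and 50.8% for peaks beyond 1000 bp. The order was different at the top. The upper quartile of the list by signal held 24.9% of core peaks, 31.1% of flank, 22.8% of head-to-head and 22.5% of peaks beyond 1000 bp. In the replicates' own top regions the core medians were 55.1, 54.7 and 47.6% (52.5 ± 4.21, SD, n = 3), so replicate 4 placed them highest. Core minus flank was 5.46 ± 6.92 percentage points over replicates 2, 3 and 4, positive in 2 of 3 (exact sign-flip permutation test, two-sided, p = 0.5, adjusted p = 0.571). Core minus head-to-head was 4.99 ± 2.52 points, positive in 3 of 3 (exact sign-flip permutation test, two-sided, p = 0.25, adjusted p = 0.333). With 3 replicates the smallest p this test allows is 0.25, so none of these comparisons could reach a conventional threshold. Adjustment was over the 8 comparisons made.

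Members were found among the top regions of replicate 2 in 282 cases (68.3%), of replicate 3 in 283 (68.5%) and of replicate 4 in 260 (63.0%). A region of any strength was present for 407, 400 and 340 of them. All 3 replicates held 151 members (36.6%, exact 95% interval 31.9 to 41.4%), exactly 2 held 123, 1 held 126 and none held 13. The same share over all nuclear optimal peaks was 38.5%, so core peaks were close to the list as a whole. It was 43.9% for flank peaks, 35.3% for head-to-head peaks and 37.9% for peaks beyond 1000 bp.

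Averaged over the replicates, 66.6 ± 3.15% of core peaks and 71.9 ± 2.28% of flank peaks were found among the top regions. The difference was −5.27 ± 4.67 points, negative in 3 of 3 replicates (exact sign-flip permutation test, two-sided, p = 0.25, adjusted p = 0.333). Against head-to-head peaks it was −0.60 ± 10.8 points, with 1 positive and 2 negative replicates (the same exact test, p = 1). In replicate 2 core peaks were found more often than head-to-head peaks (68.3 against 57.2%) and in replicate 3 less often (68.5 against 78.8%).

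**Figure D3:**
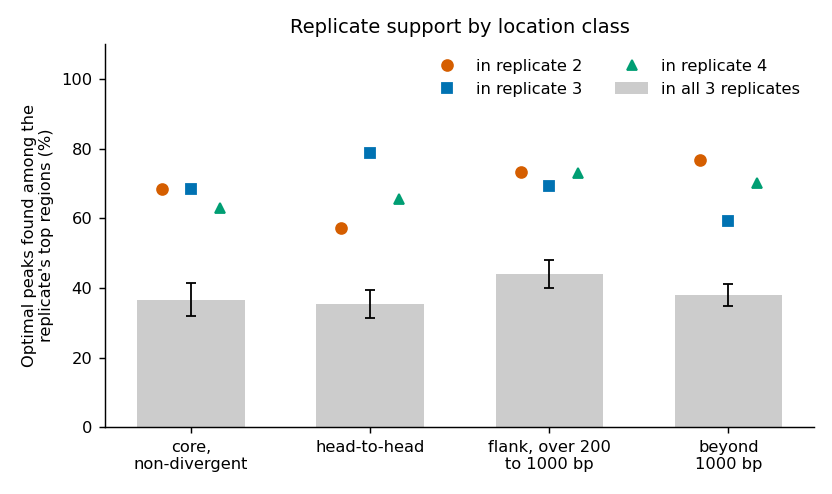
Percentage of optimal peaks found among the top regions of replicates 2, 3 and 4 (points) and of all 3 (bars, with exact binomial 95% intervals for counting error only), for the 4 location classes. The core bar is at 36.6% and its interval overlaps those of the other bars, and the order of the replicates differs between classes.

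Support followed strength steeply. Of the 104 strongest members 92.3% were in all 3 replicates, of the next 103 44.7%, of the next 103 5.83% and of the weakest 103 2.91%. The optimal list was called on the same reads, so this is a description of agreement. Across the same steps the median summit moved from 122 to 99, 82 and 74 bp upstream, and mean GC content within 100 bp of the summit went from 36.6 to 37.9, 39.2 and 39.5%. Members with a region in both lists had rank correlations (Spearman's rho across peaks, which share libraries and are not replicates) of 0.36 between replicates 2 and 3 (394 members), 0.51 between 2 and 4 (335) and 0.53 between 3 and 4 (334).

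The members seen in a single replicate differed in base composition. The 56 members among the top regions of replicate 2 alone had a mean GC content of 45.9%, and 20 of them (35.7%) held GAGA. The 43 of replicate 3 alone had 36.1% GC and 3 held GAGA, and the 27 of replicate 4 alone had 40.1% GC and 2 held GAGA. The 151 members in all 3 had 36.4% GC and 19 of them (12.6%) held GAGA. Flank peaks were similar. Those of replicate 2 alone had 43.0% GC and 29.5% held GAGA, and those in all 3 had 35.7% GC and 14.4% held it. The composition of each replicate moved with these counts, and its part in the result was not tested.

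GC content within 100 bp of the summit was 38.3% on average over the members. Over the core regions of the replicates it was 44.1% in replicate 2, 35.0% in replicate 3 and 38.7% in replicate 4 (39.3 ± 4.56%, n = 3). Replicate 2 was also the highest for the other classes. Core minus flank was 2.05 ± 1.80 points and core minus head-to-head 3.74 ± 2.96 points, each positive in 3 of 3 replicates (exact sign-flip permutation test, two-sided, p = 0.25, adjusted p = 0.333 for each). For comparison, the window from 200 bp upstream to the TSS held 38.9% GC at 356 starts that members had and 39.8% over 8975 non-divergent protein-coding promoters.

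DRE had a higher share at core than at flank summits in every replicate. TATCGATA, searched on both strands within 100 bp, was present at 25 of 413 members (6.05%), 4 of 585 flank peaks (0.68%), 51 of 575 head-to-head peaks (8.87%) and 3 of 937 peaks beyond 1000 bp (0.32%). In the core regions of replicates 2, 3 and 4 its share was 2.47, 9.94 and 5.18%. Replicate 3 was the highest and replicate 2 the lowest. Core minus flank was 4.90 ± 3.09 points, positive in 3 of 3 replicates (exact sign-flip permutation test, two-sided, p = 0.25, adjusted p = 0.333). Core minus head-to-head was −2.68 ± 2.21 points, negative in 3 of 3 (the same exact test, p = 0.25, adjusted p = 0.333).

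Promoters hold DRE with or without a Broad peak. Of the 8975 non-divergent protein-coding promoters, 4.68% held the word in the window from 200 bp upstream to the TSS. In the same window, 6.74% of the 356 promoters with a core peak held it. The replicate shares at core summits, 2.47 to 9.94%, lie on both sides of the background, so the DRE share of core peaks was not separated from that of promoters in general.

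DRE-holding members ranked lower in the optimal list. Their median rank was 1786 among nuclear peaks, against 1374.5 for members without the word. They were among the top regions of replicate 2 in 8 of 25 cases (32%), of replicate 3 in 19 (76%) and of replicate 4 in 14 (56%), and 4 (16%) were in all 3. Members without DRE were found in 70.6, 68.0 and 63.4% of cases, and 37.9% were in all 3. Among the members shown above, CG7006 ranked 5588, 819 and 495 in replicates 2, 3 and 4, Epg5 2589, 928 and 885, and Hsp110 2562, 1122 and 2197. Each of these 3 was below the top regions of replicate 2 and within those of replicates 3 and 4. The rest of those shown were within the top regions of replicate 2. Map205 ranked 994, 982 and 10093, EMC4 ranked 1108 and 660 with no region in replicate 4, and CG42359 ranked 2524, 834 and 944. The word lay a median of 35.5 bp from the summit and 38.5 bp upstream of the TSS, and 13 of the 25 had it within 50 bp of the summit.

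GAGA showed the opposite order of replicates. GAGAGA was near 59 members (14.3%) and in 28.7, 8.92 and 11.2% of the core regions of replicates 2, 3 and 4. The background of all promoters was 11.2%, and 18.0% of promoters with a core peak held it in the same window. Flank peaks (15.0%) and peaks beyond 1000 bp (14.8%) held it about as often as core peaks, and head-to-head peaks less (4.70%). Replicate 2 had the highest share in these 3 classes too, at 23.2, 18.6 and 9.20%. GAGA-holding members were among the top regions of replicate 2 in 50 of 59 cases (84.7%), of replicate 3 in 32 (54.2%) and of replicate 4 in 30 (50.8%). Eip75B ranked 164, 1137 and 400, and Hsp26 ranked 143 and 374 in replicates 2 and 3 and had no region in replicate 4. Both were highest in replicate 2, as were gish and REPTOR. Not all members with GAGA were: nebu ranked 156, 92 and 192, and CG11857 ranked 482, 113 and 130.

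Words of the Broad forms Z2, Z3 and Z4 were near the promoter background. No word was searched for any other Broad form. Because the fingers of br-RE were unknown here, its own word may not be among those searched. The Z2 word was at 85 members (20.6%; replicates 14.6, 22.9 and 20.7%; all promoters 18.6%). The Z3 word was at 83 (20.1%; replicates 13.3, 22.5 and 21.8%; all promoters 17.4%). The Z4 word, which is also a forkhead core, was at 29 (7.02%; replicates 4.93, 5.68 and 7.90%; all promoters 5.06%). Replicate 2 had the lowest share of all 3 words and lay below the background for each. In the window that ends at the TSS, promoters with a core peak held them in 20.5, 19.7 and 4.21% of cases. Members with the Z2 or Z3 word were in all 3 replicates in 43.5 and 47.0% of cases, and those without in 34.8 and 33.9%. For the Z4 word the shares were close, 37.9 against 36.5%. Other words also had gaps, in either direction, such as TATAAA (41.6 against 34.4%) and the BEAF-32 word (29.4 against 39.7%).

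The general core promoter words were also near their background. The M1BP word was at 12 members (2.91%; all promoters 1.99%), against 0.17% of flank summits and 3.30% of head-to-head summits. TATAAA was at 125 (30.3%; all promoters 35.9%), the initiator word TCAGT at 154 (37.3%; all promoters 35%), the pause button word CGGACG at 12 (2.91%; all promoters 3.04%) and the E-box CAGCTG at 44 (10.7%; all promoters 10.5%). The BEAF-32 word CGATA, which is part of DRE, was at 126 (30.5%; all promoters 31.9%), and it was in 26.8, 41.0 and 33.0% of core regions of the replicates. A tracts of 7 bases were at 90 members (21.8%; all promoters 18.5%).

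Rarer words gave few members each. CCGGAA of the ETS factors was at 18 (4.36%; all promoters 4.33%), TGACTCA of AP-1 at 10 (2.42%; all promoters 1.85%), CAGGTAG of Zelda at 6 (1.45%; all promoters 1.37%) and CAGCACTA, a form of Ohler motif 7, at 2 (0.48%; all promoters 0.568%). The nuclear receptor word AGGTCA was at 9 members (2.18%) and in 1.52, 1.42 and 2.18% of the replicates' core regions, below the 3.89% of all promoters in every list. A match is only a match of letters, and summit windows are centred differently from the promoter windows.

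**Figure D4:**
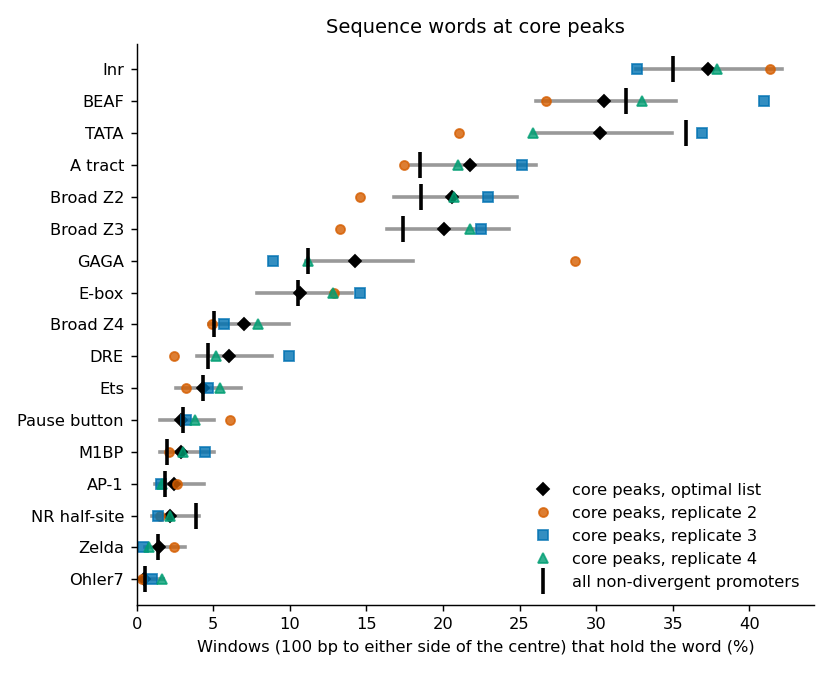
Percentage of windows, reaching 100 bp to either side of their centre, that hold each word on either strand. Diamonds are the 413 members (grey lines, exact binomial 95% intervals for counting error only), coloured points the core regions of replicates 2, 3 and 4, and black ticks the same width upstream of the TSS of all 8975 non-divergent protein-coding promoters. GAGA has the widest gap between replicates, from 8.92 to 28.7%, and the DRE points lie on both sides of its tick.

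Genes were then grouped by role, counting only those with a start near which a summit would be clear of divergent pairs, since the others cannot own a core peak. Over all such protein-coding genes, 344 of 9940 owned one, a background of 3.46%. The core regions of replicates 2, 3 and 4 gave 424, 443 and 319 genes (4.27, 4.46 and 3.21%). Counts below are read against this background, and no group was tested. For peaks that a pair of replicates shared, the background was 1.53 to 1.72%.

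Ecdysone response genes, the pathway in which Broad acts, had core peaks at 5 of 25 genes (20%), and at 6, 3 and 3 in replicates 2, 3 and 4. For peaks shared by the remaining replicates the share was 16, 12 and 12% without replicate 2, 3 and 4. Eip75B, an early nuclear receptor, had a signal of 268 at 23 bp downstream of a start, with ranks of 164, 1137 and 400. Ldh, encoding lactate dehydrogenase, had 220 at 185 bp upstream, with ranks of 254, 299 and 1805. E23, an ABC transporter gene, had 179 at 182 bp upstream and ranked 858, 309 and 1492. These 3 were among the top regions of every replicate.

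Eip74EF, which encodes an early ETS factor, had a signal of 154 at 59 bp upstream. It ranked 192 in replicate 2 and 7049 in replicate 3 and had no region in replicate 4, so its peak rested on replicate 2. The stronger vri peak, 189 bp upstream of a start, had ranks of 6044, 725 and 736, and was thus outside the top regions of replicate 2. The second vri peak ranked 293 in replicate 2 and had no region in the others. The br gene had no core peak: its peak nearest to a start was 657 bp upstream, at rank 1212 of the optimal list, and its other 4 peaks were 3057 to 12908 bp from the nearest start.

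Heat shock genes had core peaks at 4 of 21 genes (19.0%; 3, 3 and 2 in the replicates). The share was 9.52, 4.76 and 9.52% for peaks shared without replicate 2, 3 and 4. Hsp27 was the strongest with a signal of 477, ranks of 73, 65 and 127, and a summit 151 bp upstream. Hsp26 followed with 268, then the chaperone genes Hsp110 with 119 and Hsp60A with 111. Hsp27 was in the top regions of every replicate, Hsp110 and Hsp26 in those of 2 and Hsp60A in those of replicate 3 alone.

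Chromatin factor genes had core peaks at 5 of 17 (29.4%), and 5 in each replicate. Equal counts did not mean shared peaks: with peaks required to be shared by the remaining replicates, the share was 11.8% without replicate 2 and 5.88% without replicate 3 or 4. Trl, encoding the GAGA factor, had a signal of 189 at 111 bp downstream and ranked 1917, 795 and 441. JIL-1, a histone H3 kinase gene, had 111 and ranked 4938, 965 and 2144. The BTB factor genes psq and lola had signals of 106 and 96.2, and the insulator gene BEAF-32 had 88.5 at rank 2524 of the optimal list, next to its end. Trl was in the top regions of every replicate, JIL-1 in those of replicates 3 and 4, lola in those of replicate 2 alone and BEAF-32 in those of replicate 4 alone.

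Cytosolic ribosomal protein genes had core peaks at 8 of 48 (16.7%; 6, 5 and 7 in the replicates). With peaks required to be shared by the remaining replicates, the share was 2.08, 4.17 and 6.25% without replicate 2, 3 and 4. The strongest were RpL23A with a signal of 161, RpL24 with 156, RpL11 with 145 and RpL30 with 142. RpL30 ranked 866, 2117 and 1724 and was the only one of these 4 in the top regions of every replicate. RpL23A ranked 1202, 3173 and 444, RpL24 868, 602 and 6828, and RpL11 761 and 662 with no region in replicate 4. Each of the other 3 was missing from the top regions of 1 replicate. RpL27, RpL37-1, RpS10b and RpS29 had signals of 92.1 to 103, near the lower end of the list, and each was in the top regions of a single replicate.

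Genes for RNA polymerase II, its general factors and Mediator had core peaks at 3 of 23 (13.0%; 0, 2 and 3 in the replicates). The share was 8.70, 4.35 and 4.35% for peaks shared without replicate 2, 3 and 4. Taf4, a TFIID subunit gene, had 214 and ranked 601, 444 and 494. Polr2F, a polymerase subunit gene, had 135 and TfIIA-S 97.0. The replicate 2 region matched to the Taf4 member lay within 200 bp of its summit but did not itself meet the rule at that gene.

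The other housekeeping groups held at most 1 gene each. A single gene was found among autophagy genes (Atg8a, of 6), tRNA synthetases (AlaRS, of 11), DNA replication genes (PolA1, of 14), Rab GTPases (Rab11, of 20), the vacuolar proton pump (Vha16-1, of 20) and oxidative phosphorylation (SdhD, of 49). In groups this small 1 gene is already above the background, except in oxidative phosphorylation (2.04%). Mitochondrial ribosomal proteins (0 of 15), proteasome subunits (0 of 23), translation initiation factors (0 of 26), cell cycle genes (0 of 18), splicing factors (0 of 5) and nuclear pore genes (0 of 4) had none in the optimal list, and nuclear pore genes had none in any replicate. Against a background of 3.46%, a count of 0 in groups of this size is not separated from it. Replicate 3 held 4 Rab, 3 oxidative phosphorylation, 2 proteasome and 2 mitochondrial ribosomal genes, while replicates 2 and 4 held 0 of each.

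Groups known for expression in particular tissues or stages had no core peak in the optimal list or in any replicate. This held for cuticle proteins (0 of 115), odorant and gustatory receptors (0 of 105), cytochrome P450 genes (0 of 76), ionotropic receptors (0 of 52), Osiris genes (0 of 25), Jonah proteases (0 of 13), Hox genes (0 of 8) and the salivary gland glue genes (0 of 4). In the groups of 76 genes or fewer a count of 0 is not separated from the background of 3.46%. No group was tested, the larger ones included. In all, 10 of 25 groups were above the background in the optimal list. That count was 8 with a limit of 100 bp and 5 for the stronger 50% of peaks or for peaks shared by any 2 given replicates.

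**Figure D5:**
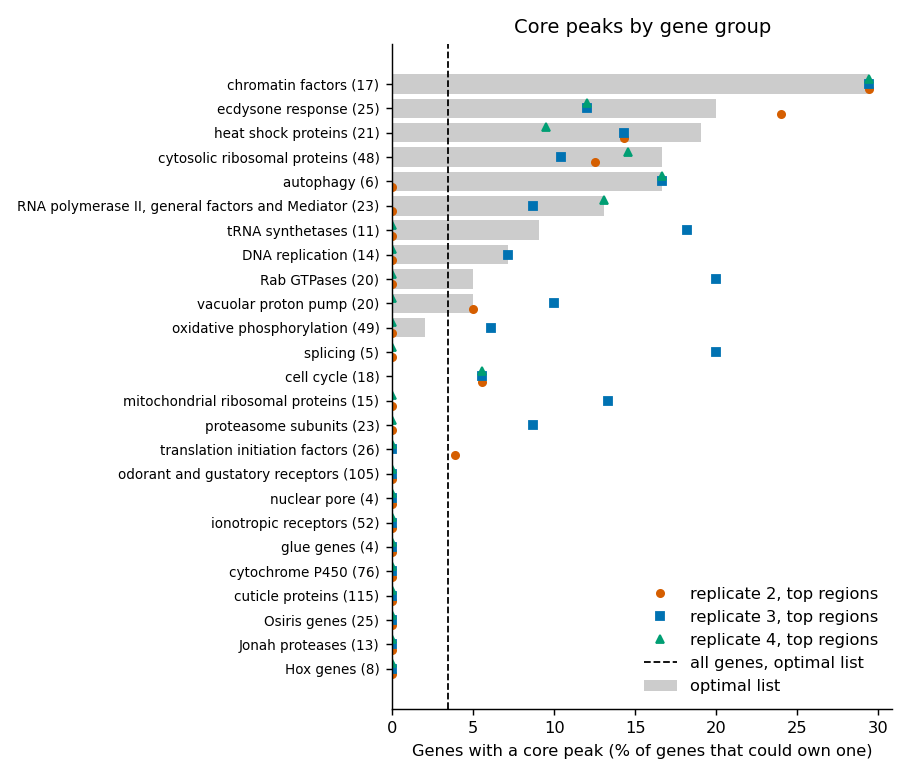
Percentage of genes with a core peak in each of 25 groups, with the number of genes that could own one in brackets. Bars are the optimal list, points the top regions of replicates 2, 3 and 4, and the dashed line is the background of 3.46% over all 9940 such genes. Chromatin factors have equal counts in every list, 29.4%, which fell to between 5.88 and 11.8% for peaks shared by a pair of replicates, and 9 groups are at 0 in every list.

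Core peaks at small RNA genes were few. The peak at tRNA:His-GTG-1-3 had a signal of 223 and ranked 412, 372 and 791, so it was in the top regions of every replicate. The peaks at tRNA:Gln-TTG-1-3 (signal 103), snRNA:U4:39B (117), snRNA:U5:63BC (95.6) and snoRNA:185 (109) were each missing from the top regions of at least 1 replicate. The tRNA and snRNA genes belong to families with near-identical copies, so how reads were shared among copies can change their values.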

How the data were processed

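Immunoprecipitated chromatin of 3 replicates was compared by its peak lists. The signal values are the authors' deposited values: 1 list per replicate, 1 list called on the pooled replicates (27389 regions) and the optimal list, which holds the 2533 strongest pooled regions. The deposited summit offset within each region (another value, in bp) gave the summit. Per the labels the lists are on dm6. The aligner, peak caller, control scaling and read depth were not given in the sources used here. Intervals cover counting error only. If replicates differed in depth or background, their ranks and the number of shared regions would move. The control was not analysed here.

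Starts came from Ensembl release 115 (BDGP6.54), without pseudogenes and transposable elements, and sequence from RefSeq's copy of Release 6. Python 3.11.15, numpy 2.4.6, pandas 2.3.3, scipy 1.17.1 and matplotlib 3.10.9 were used. Words were searched on both strands in windows of 100 bp to either side of the summit. Promoter backgrounds used the most upstream start of each protein-coding gene. Classes were compared by an exact two-sided sign-flip permutation test over the 3 replicates, with Benjamini-Hochberg adjustment over 8 comparisons. The steps were tested on simulated data (500 peaks).

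Members, words and the 25 gene lists were chosen with earlier results of these data known; 1 listed symbol matched no gene. Genes were named by a rule: the 25 strongest members, up to 4 genes per group in order of signal, up to 6 members per printed word on the chromosomes from which sequence is shown, up to 3 peaks on either side of the distance limit, and br. Genes owning several core peaks, the fifth gene of a group and those at small RNAs were named after their values were seen. Alternatives changed the distance limit, start sites, pair window, peak threshold, word window, number of regions, match distance and replicates.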

Additional observations from a re-analysis of the deposited data

How the results depend on the processing

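The share of members among nuclear peaks, 16.5%, became 7.53% with a limit of 100 bp and 22.7% with 300 bp. The share found in all 3 replicates, 36.6%, was 22.3% with 50% as many top regions, 79.7% with all regions, 32.9% with matches within 100 bp, 72.6% for the stronger 50% of peaks, 28.6% with a limit of 100 bp, and 44.8 to 48.2% when 1 replicate was left out and the other two had to share the peak. The median place in the signal order, 56.2%, was 64.0% with a limit of 100 bp and 51.1 to 54.9% without 1 replicate. The median position of −96 bp was −125 bp with 300 bp, −110.5 bp for the stronger 50% and −87.5 to −78 bp without 1 replicate. The share of genes with a core peak, 3.46%, was 1.61% with 100 bp, 1.64% for the stronger 50% and 1.53 to 1.72% without 1 replicate. The DRE share (6.05%; 3.15 to 8.99%) and the GC content (38.3%; 36.9 to 41.4%) moved by less than the spread between replicates under the alternatives run. Of the values of single gene groups under alternatives, 80 were counted as moved, meaning a difference at least as large as the spread between replicates, and 45 were not. The 80 include every value of the 9 groups at 0 in all lists. In those groups the value and the spread were both 0 and nothing changed. Apart from the larger or smaller sets that each alternative makes, the cause was not tested. No paired analysis was possible because there is 1 group and thus no pair of conditions; the location classes were compared within each replicate. Read depth was unknown, and 3 replicates limit every test.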
